A study of Mus musculus with 407 samples.

Results

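The nuclear genes of oxidative phosphorylation were followed in 4 mouse muscles over 6 ages. The members were every gene symbol that starts with Nduf, Uqcr or Atp5, every symbol made of Cox and a digit from 4 to 8, and Sdha, Sdhb, Sdhc, Sdhd and Cycs, which gave 93 of 24458 symbols. They comprised 36 subunits of complex I, 7 complex I assembly factors (Ndufaf1 to Ndufaf7), 4 subunits of complex II, 8 of complex III, 20 of complex IV, 15 of complex V, cytochrome c (Cycs), and Atp5s and Atp5sl, which carry a complex V symbol and are listed apart. After the filter on low counts, 90 or 91 members were tested in each muscle and sex. The libraries were total RNA from the tibialis anterior, gastrocnemius, soleus and diaphragm of untreated male and female C57BL/6J mice aged 6, 12, 18, 21, 24 or 27 months, with 6 to 10 libraries in each of 48 groups and 407 libraries in all. The mice were wild type, came from a single supplier at various ages and were housed for some weeks before collection. No engineered allele and no agent is named for any group. Muscles of an age group were collected on a single day, so age and day of collection cannot be told apart. It is not stated in the labels which muscles shared a mouse. The study's sample list equates the samples of a muscle with animals, so replicates within a muscle were separate mice. The p-values measure the spread between these samples.

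Oxidative phosphorylation passes electrons from NADH through complex I, or from succinate through complex II, to ubiquinone, complex III, cytochrome c and complex IV, where oxygen is reduced. Complexes I, III and IV pump protons across the inner mitochondrial membrane, and complex V, the ATP synthase, uses that gradient to make ATP. Most subunits are encoded in the nucleus and assembled with a small set made in the mitochondrion, with the help of assembly factors that are not part of the finished enzyme. Some subunits of complex IV exist as a muscle isoform and as a form found in most tissues, and slow oxidative muscle such as the soleus is richer in mitochondria than fast limb muscle.

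Library totals ran from 38583802 to 300089909 counts with a median of 72766895, and the second highest was 104836980. The members took a median of 0.802% of counts in the female gastrocnemius and 1.452% in the male diaphragm, the lowest and highest medians of the 8 muscle and sex sets, while the mitochondrially encoded protein genes took 19.473% to 30.881%. The summed level of 8 slow fibre genes in CPM (counts scaled to a common library size) lay between 11600 and 26600 in the soleus and between 64.5 and 307 in the tibialis anterior at 6 and 27 months. These genes were thus abundant in the soleus and scarce in the tibialis anterior. In 8 libraries, genes with GC-rich transcripts were shifted against GC-poor genes by over 1 on the log2 scale (members left out of this measure), against -0.479 to 0.537 in the others. They were the female diaphragm libraries 6 months replicate 2, 21 months replicate 0, 24 months replicate 3 and 27 months replicate 0, the male diaphragm libraries 6 months replicate 2 and 27 months replicate 6, the male gastrocnemius library 12 months replicate 7 and the female gastrocnemius library 27 months replicate 0. Results that rest on them are given with and without them.

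**Figure D1:**
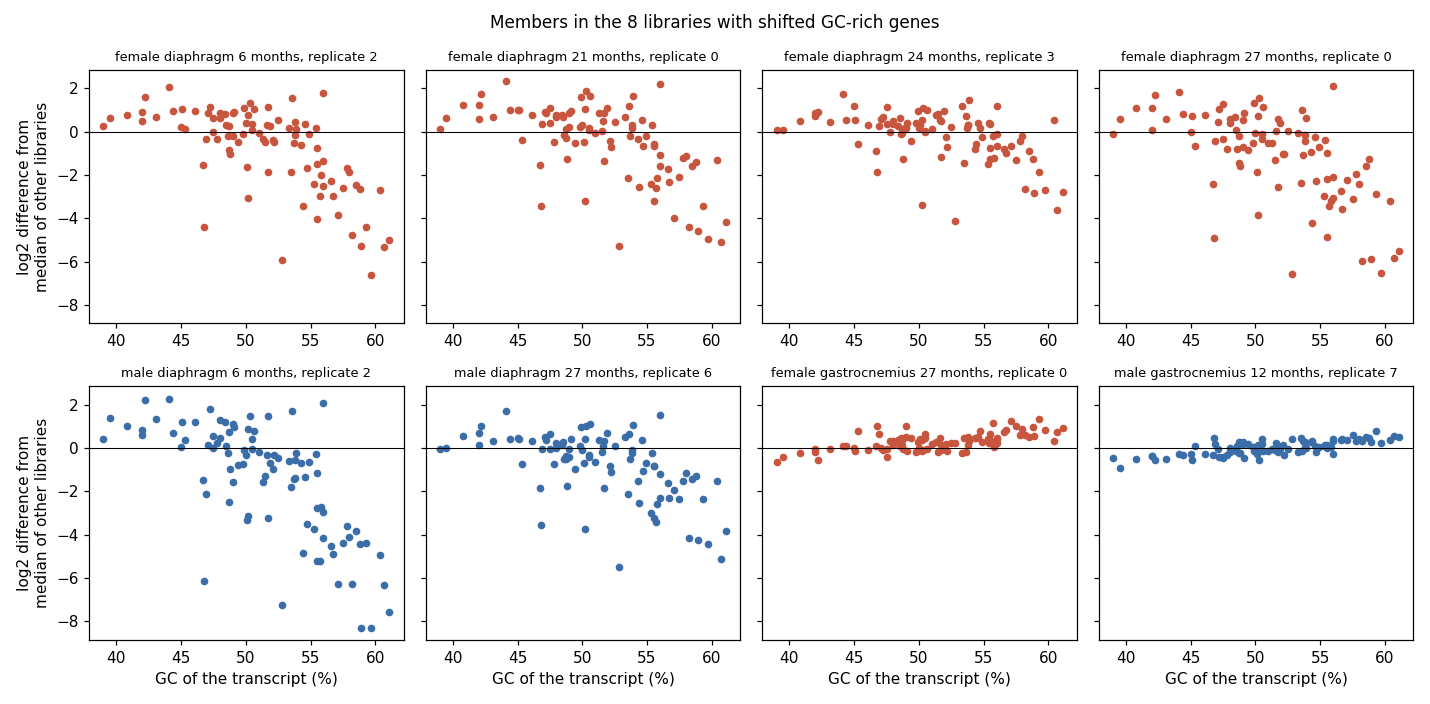
Difference in log2 CPM of each member from the median of the other libraries of its muscle and sex (vertical axis) against the GC content of its transcript in percent (horizontal axis), 1 panel for each of the 8 GC-shifted libraries; points are members. In the diaphragm panels GC-rich members fall to the lower right (r = -0.706 in the male library at 6 months), and in the gastrocnemius panels the slope is upward and the deviations are smaller.

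These libraries carried large deviations in the members. In the male diaphragm library 6 months replicate 2, with the largest shift (-5.27), Atp5d, a central stalk subunit of complex V with 61.1% GC, stood at 1.38 CPM against 136 to 310 CPM (median 261) in the other libraries of that set. Ndufb7, a complex I subunit with 59.7% GC, stood at 0.0823 CPM against 12.7 to 38.4 CPM there. Ndufa4, with 44.1% GC, stood at 451 CPM against 44 to 199 CPM. GC-rich members were thus low and a GC-poorer member high in the same library. Of the members, 40 lay below and 25 above all other male diaphragm libraries in it. Across the members of a library, the deviation correlated with GC content at r = -0.706 in that library and at r = 0.626 in the female gastrocnemius library 27 months replicate 0, where 45 members lay above all others and 5 below. These are correlations over genes of 1 library, and genes are not independent replicates.

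At 27 months the share of members called lower than at 6 months was above that of all genes in the female gastrocnemius and tibialis anterior and near or below it in the other 6 sets, and the falls were small. Changes are given as log2 fold changes at 27 against 6 months, tested with edgeR's quasi-likelihood test in each muscle and sex, and a member was called where the p-value adjusted over all genes tested was below 0.05. In the female tibialis anterior 38 of 90 members fell (42.2%, against 9.84% of all genes tested) and 0 rose (12.1% of all genes rose). Of the female gastrocnemius members, 33 of 91 fell (36.3%, against 14.6% of all genes) and 1 rose (14.6% of all genes rose). The called falls ran from -0.31 to -0.0992 in the former muscle and from -0.34 to -0.10 in the latter, that is, 6.64% to 19.1% and 6.76% to 21.1% less.

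Fewer members were called in the other sets. The male gastrocnemius had 9 falls among 90 members (10%, against 12.6% of all genes) and 1 rose (10.6% of all genes rose), a share of falls near the background. The male tibialis anterior had 5 of 90 (5.56%, against 7.81%), Atp5sl, Ndufa1, Ndufa4l2, Ndufaf4 and Ndufb4, and 0 rose (9.97% of all genes rose). The female soleus had 7 of 91 (7.69%, against 8.74%) and 0 rose (10% of all genes rose). The male soleus had 1 of 91, Atp5sl (1.1%, against 1.05%), and 0 rose (1.8% of all genes rose). In the male diaphragm 1 of 91 fell, Ndufaf4 (1.1%, against 3.52%), and 0 rose (5.13% of all genes rose). In the female diaphragm edgeR called 0 of 91 in either direction (0.988% of all genes fell and 0.624% rose), with 0 at an unadjusted p below 0.05 and 0 by limma-voom and by DESeq2. At an unadjusted p below 0.05, members that fell numbered 28 in the male tibialis anterior, 15 in the male soleus and 12 in the male diaphragm. In bulk RNA, fewer cells of a type and less of this RNA per cell cannot be told apart.

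With all libraries, the median change over the members was below that of all genes in each set. In the tibialis anterior it was -0.11 in males and -0.14 in females, beside all-gene medians of 0.01 and 0.00, with 88 of 90 and 87 of 90 members below 0. For the gastrocnemius it was -0.06 and -0.10, beside 0.00 and 0.02, with 74 of 90 and 81 of 91 below 0. In the soleus it was -0.11 and -0.06, beside -0.01 and -0.03, with 83 of 91 and 60 of 91 below 0. The diaphragm stood at -0.14 and -0.05, beside 0.02 and 0.03, with 73 of 91 and 62 of 91 below 0. Single libraries decided part of this. Without 6 months replicate 4 the female soleus members stood at -0.01 beside -0.03 for all genes, above them, and without 6 months replicate 1 the female diaphragm stood at 0.03 beside 0.03. The male gastrocnemius stood at -0.02 without 6 months replicate 0 or 27 months replicate 8, and the male diaphragm at -0.02 without liver-rich libraries. With library totals alone as the scaling, the members' median turned to 0.01 in the male and 0.02 in the female gastrocnemius while all genes stood at 0.08 and 0.14, so the members were lower there relative to other genes, not per total count. Under that scaling the female gastrocnemius had 5 rises and 3 falls, the male gastrocnemius 3 and 4, and the female soleus 0 rises and 79 falls with all genes at -0.22.

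The same was seen library by library, as the median over the members of the log2 difference from the 6-month mean. In the female tibialis anterior this median ran from -0.08 to 0.13 (median -0.01, n = 8) at 6 months and from -0.26 to -0.02 (median -0.14, n = 10) at 27 months, and 0 of 10 aged libraries lay above the median young one. In the female gastrocnemius it ran from -0.09 to 0.09 and from -0.31 to 0.20, and the highest aged library was the GC-shifted one. In the male tibialis anterior it ran from -0.16 to 0.18 and from -0.39 to 0.12, with 2 of 10 aged libraries above the median young one. In the diaphragm the young libraries alone spread from -0.61 to 0.37 in males and from -0.43 to 0.52 in females, wider than in any limb set.

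**Figure D2:**
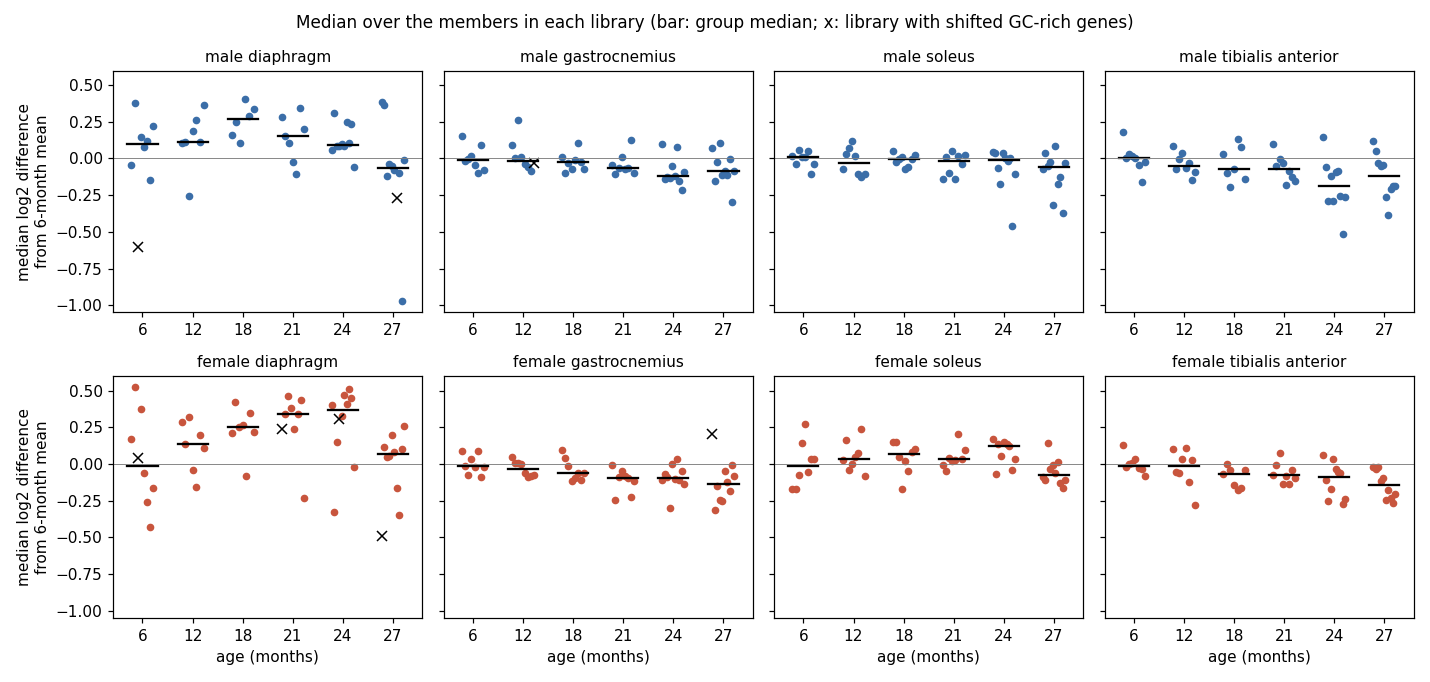
Median over the members of the log2 difference from the 6-month mean in each library (vertical axis) by age in months (horizontal axis), 1 panel for each muscle and sex; points are libraries, bars are group medians and crosses are GC-shifted libraries. In the female tibialis anterior the 27-month libraries lie between -0.26 and -0.02, and in the diaphragm most libraries at 18 to 24 months lie above 0.

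The counts of calls moved with single libraries too. Without the GC-shifted library 27 months replicate 0, 62 members of the female gastrocnemius fell and 1 rose of 90 tested (14.9% of all genes fell), with a median of -0.16 and 86 below 0. Without 6 months replicate 4, 1 fall was called in the female soleus, and without 27 months replicate 8 the male gastrocnemius had 5 falls and 1 rise. Without the GC-shifted library at 12 months, the male gastrocnemius had 8 falls and 1 rise (13.2% of all genes fell). Leaving out either library of the male soleus farthest from its group (6 months replicate 2 or 27 months replicate 8) gave 0 calls there.

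With the GC-shifted libraries of the male diaphragm left out, Ndufaf4 was no longer called and 2 members fell (4.88% of all genes fell). They were Atp5sl (-0.38, SE 0.131, adjusted p = 0.0484) and Ndufa4l2 (-0.45, SE 0.152, adjusted p = 0.0465). In the female diaphragm 1 member then fell (2.97% of all genes fell), again Ndufa4l2, a paralogue of Ndufa4 known to respond to low oxygen. It ranged from 3.5 to 4.61 CPM (median 3.88, n = 7) at 6 months and from 1.85 to 4.12 CPM (median 2.9, n = 9) at 27 months, with overlapping groups (-0.51, SE 0.138, adjusted p = 0.0261).

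Over the 8 sets together, falls were called for 39 of 288 pairs of member and set in complex I, 11 of 56 for the complex I assembly factors, 4 of 32 for complex II, 4 of 64 for complex III, 17 of 141 for complex IV, 12 of 120 for complex V, 2 of 8 for Cycs and 5 of 16 for Atp5s and Atp5sl. Together these are 94 falls in 725 pairs (13%, against 7.32% of all pairs of gene and set), and 33 of them are of the female gastrocnemius, which had 62 without its GC-shifted library. Rises were called in 2 pairs, both of Cox8a (8.01% of all pairs of gene and set rose). Of the members, 34 fell in no set, 31 in 1, 19 in 2, and 7 in 3 or more. These were Ndufaf4 in 5 sets, Atp5sl and Ndufb4 in 4, and Atp5o, Cox8b, Ndufa1 and Ndufaf6 in 3. Members outside the naming rule in the processing account are named after their values were seen, Atp5o, Ndufa1, Ndufb6, Ndufc1 and the complex III members among them.

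In complex I, 16 of 36 subunits fell in the female tibialis anterior (median of the complex -0.17) and 14 of 36 in the female gastrocnemius (median -0.10, all 36 below 0), where 29 of 36 fell without the GC-shifted library (median -0.17). Ndufb4, an accessory subunit of the membrane arm, ranged in the female gastrocnemius from 58.8 to 71.5 CPM (median 65.3, n = 8) at 6 months and from 48.7 to 60.7 CPM (median 53.1, n = 10) at 27 months. The groups overlapped at their edges only (-0.28, SE 0.0468, adjusted p = 7.28e-06). Male gastrocnemius libraries held 62.7 to 78.2 CPM (median 67.6) and 44.6 to 65 CPM (median 58.9), again with a narrow overlap (-0.26, SE 0.0614, adjusted p = 0.00134). Ndufb4 also fell in the female tibialis anterior (-0.22, SE 0.0525, adjusted p = 0.00162) and in the male tibialis anterior (-0.17, SE 0.0579, adjusted p = 0.0358). Its counts therefore fell in both sexes of both fast limb muscles.

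Of the other complex I subunits, Ndufb6 and Ndufc1 fell in the gastrocnemius of both sexes, by 0.21 and 0.24 in males and by 0.21 and 0.23 in females on the log2 scale, and Ndufs8 fell in the male gastrocnemius. The last call was lost without the GC-shifted library (-0.18, SE 0.0693, adjusted p = 0.0531). Ndufa1, another membrane arm subunit, fell in the female gastrocnemius from 26.8 to 36.1 CPM (median 28.7) at 6 months to 22 to 26.8 CPM (median 24.4) at 27 months, so that the highest aged library met the lowest young one. Of complex I, 3 subunits fell in the female soleus. Ndufa13, an accessory subunit also known as Grim19, ranged there from 47.1 to 91.9 CPM (median 57.9) at 6 months and from 40.9 to 57.8 CPM (median 45.4) at 27 months (-0.40, SE 0.119, adjusted p = 0.0140). Ndufa3 ranged from 18 to 40.6 CPM (median 21.7) and from 15.4 to 21.8 CPM (median 18.7), with a change of -0.39 (SE 0.132, adjusted p = 0.0308). In both genes the aged range reached into the lower part of the young range, and the highest young library stood far above its group's median. The third was Ndufa5 (-0.32).

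Assembly factors of complex I fell in both sexes of the gastrocnemius. Ndufaf5, which modifies a core subunit during assembly, ranged in the female gastrocnemius from 11.3 to 14 CPM (median 12.7, n = 8) at 6 months and from 9.38 to 10.9 CPM (median 9.92, n = 10) at 27 months. No library of the groups overlapped (-0.34, SE 0.0514, adjusted p = 1.03e-06). In the male gastrocnemius it ran from 10.1 to 11.2 CPM (median 10.5) and from 7.21 to 9.77 CPM (median 8.46), again without overlap (-0.31, SE 0.0547, adjusted p = 2.88e-05). Ndufaf6, an early-acting factor, fell by 0.23 (SE 0.0528, adjusted p = 0.000562) in the female and by 0.22 (SE 0.0490, adjusted p = 0.000716) in the male gastrocnemius.

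Ndufaf4, which takes part in early membrane arm assembly, fell in 5 sets. In the male tibialis anterior it ranged from 25.7 to 31.4 CPM (median 28.3) at 6 months and from 19.5 to 24.9 CPM (median 23.8) at 27 months, without overlap (-0.28, SE 0.0555, adjusted p = 0.000217). For the female gastrocnemius the range was 19.6 to 26.4 CPM (median 25.1) and 16.5 to 22.4 CPM (median 19.7), with overlapping groups (-0.28, SE 0.0495, adjusted p = 1.51e-05). Male gastrocnemius libraries held 20.8 to 26 CPM (median 24.6) and 14.2 to 24.1 CPM (median 20.3), with overlap (-0.28, SE 0.0890, adjusted p = 0.0173). Its lower level was thus seen in both fast limb muscles, and in the female tibialis anterior the change was -0.16 (SE 0.0434, adjusted p = 0.00628). In the male diaphragm the call (-0.51, SE 0.142, adjusted p = 0.0217) rested on the GC-shifted libraries, without which the change was -0.30 (SE 0.115, adjusted p = 0.0797). It stood at 0.06 in the female soleus (adjusted p = 0.635).

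Atp5sl, also named Dmac2 and known as a complex I assembly protein, fell in 4 sets. In the male tibialis anterior it ranged from 17.9 to 20.8 CPM (median 19.6) at 6 months and from 10.9 to 17.8 CPM (median 16.2) at 27 months, without overlap (-0.28, SE 0.0732, adjusted p = 0.00525). Female tibialis anterior libraries held 17.5 to 20.9 CPM (median 19.2) and 14.1 to 17.3 CPM (median 16.3), again without overlap (-0.26, SE 0.0485, adjusted p = 6.59e-05). It fell less in the male gastrocnemius (-0.18, SE 0.0572, adjusted p = 0.0185). In the male soleus it ran from 23.7 to 30 CPM (median 25.9) and from 18.6 to 29.5 CPM (median 20.9), with broad overlap (-0.26, SE 0.0731, adjusted p = 0.0352).

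In complex II, the iron-sulphur subunit gene Sdhb fell most, and in the female tibialis anterior 3 of the 4 subunits fell. Sdhb ranged there from 199 to 240 CPM (median 218, n = 8) at 6 months and from 156 to 195 CPM (median 172, n = 10) at 27 months. Every aged library lay below every young one (-0.31, SE 0.0487, adjusted p = 5.74e-06). The membrane anchor genes Sdhd (95.2 to 112 CPM, median 101, against 80 to 102 CPM, median 92.5) and Sdhc (130 to 151 CPM, median 143, against 119 to 140 CPM, median 128) fell by 0.16 (SE 0.0494, adjusted p = 0.0171) and 0.12 (SE 0.0390, adjusted p = 0.0232), with overlapping groups. The flavoprotein gene Sdha ran from 312 to 370 CPM (median 325) and from 310 to 342 CPM (median 324), a difference of -0.04 (adjusted p = 0.530). The subunits of this complex therefore stood at unequal changes in the same libraries.

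The fall of Sdhb in the female tibialis anterior was called from 18 months on. Its change was -0.10 (SE 0.0515, adjusted p = 0.669) at 12 months, -0.21 (SE 0.0534, adjusted p = 0.0100) at 18, -0.24 (SE 0.0515, adjusted p = 0.00101) at 21 and -0.26 (SE 0.0487, adjusted p = 9.98e-05) at 24 months, all against the same 6-month libraries. Sdhb ran in the female gastrocnemius from 173 to 191 CPM (median 184) at 6 months and from 146 to 206 CPM (median 165) at 27 months, with young libraries inside the aged range (-0.13, SE 0.0457, adjusted p = 0.0217). It stood at -0.14 (adjusted p = 0.114) in the male tibialis anterior at 27 months. Cytochrome c, Cycs, fell in the female gastrocnemius from 365 to 437 CPM (median 400) to 310 to 396 CPM (median 341), with overlap (-0.19, SE 0.0507, adjusted p = 0.00270). Cycs ran in the female tibialis anterior from 397 to 556 CPM (median 494) and from 377 to 493 CPM (median 421), with broader overlap (-0.19, SE 0.0649, adjusted p = 0.0322).

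In complex III, Uqcrq, Uqcrfs1 (the Rieske iron-sulphur protein) and Uqcrc1 (a core subunit) fell in the female tibialis anterior, by 0.25, 0.17 and 0.16 on the log2 scale, and the median of the 8 members was -0.15. Of the complex III members 1 fell in the female gastrocnemius, Uqcrb, from 163 to 193 CPM (median 180) at 6 months to 118 to 173 CPM (median 165) at 27 months (-0.16, SE 0.0578, adjusted p = 0.0367). The groups overlapped, and without the GC-shifted library Uqcrb was not called (-0.11, SE 0.0511, adjusted p = 0.0905). In its place Uqcr10, Uqcr11, Uqcrfs1 and Uqcrh fell then, by 0.15, 0.17, 0.16 and 0.14 on the log2 scale.

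In complex V, 6 of 15 members fell in the female tibialis anterior and 4 of 15 in the female gastrocnemius, where the median was -0.13. Without the GC-shifted library 12 of 15 fell in the latter (median -0.18). Atp5g1, which encodes the c subunit of the rotor ring as Atp5g3 does, ranged in the female tibialis anterior from 129 to 171 CPM (median 149) at 6 months and from 107 to 150 CPM (median 121) at 27 months, with overlap (-0.27, SE 0.0747, adjusted p = 0.00668). Atp5g3 fell there by 0.27 too. Atp5o, the stalk subunit that confers oligomycin sensitivity, ran in the female gastrocnemius from 156 to 176 CPM (median 161) and from 119 to 165 CPM (median 139), with overlap (-0.21, SE 0.0437, adjusted p = 0.000209). It also fell in the male gastrocnemius (-0.12, SE 0.0399, adjusted p = 0.0180). In the female soleus Atp5k, a subunit that holds synthase dimers together, ran from 6.56 to 15.6 CPM (median 9.4) and from 5.44 to 8.79 CPM (median 8.03), where the aged range overlapped the lower part of the young one (-0.45, SE 0.144, adjusted p = 0.0220). Atp5b, the catalytic beta subunit and the member with the most counts per kilobase in complex V, stood at -0.09 (adjusted p = 0.182) in the female tibialis anterior.

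In complex IV the isoforms of subunit 8 changed in opposite directions in the female gastrocnemius, where Cox8a rose and Cox8b fell, and Cox8a rose in the male gastrocnemius as well. Cox8a, the form found in most tissues, ranged in the male gastrocnemius from 9.39 to 15.3 CPM (median 11.3, n = 8) at 6 months and from 12.4 to 16.8 CPM (median 15.3, n = 10) at 27 months. For females the range was 8.7 to 12.7 CPM (median 11.1) and 12.5 to 18.2 CPM (median 14.3). The groups overlapped in males and barely in females, and Cox8a rose by 0.40 (SE 0.0865, adjusted p = 0.000498) and 0.39 (SE 0.0756, adjusted p = 9.59e-05). It was the 1 member that rose at 27 months, and in the other 6 sets its change lay between -0.07 and 0.22 and was not called.

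Cox8b, the muscle form of the same subunit, fell in 3 female sets. In the female gastrocnemius it ran from 68.8 to 82.8 CPM (median 74.9) at 6 months and from 53 to 71.3 CPM (median 61.8) at 27 months, with a narrow overlap (-0.25, SE 0.0570, adjusted p = 0.000591). Female soleus libraries held 89.8 to 140 CPM (median 102) and 69.7 to 96.8 CPM (median 85.6), with overlap (-0.33, SE 0.0900, adjusted p = 0.00643). It fell by 0.21 (SE 0.0563, adjusted p = 0.00411) in the female tibialis anterior. Male gastrocnemius libraries held 75.5 to 94 CPM (median 82.7) and 66.9 to 90.9 CPM (median 77.1), a difference that was not called (-0.11, adjusted p = 0.239).

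The difference in log2 CPM between Cox8b and Cox8a within a library fell accordingly, GC-shifted libraries left out. In the female gastrocnemius it was 2.77 ± 0.233 (SD, n = 8) at 6 months and 2.14 ± 0.140 (SD, n = 9) at 27 months, and 9 of 9 aged libraries lay below the lowest young one. Among males it was 2.85 ± 0.177 (SD, n = 8) and 2.34 ± 0.211 (SD, n = 10), with 9 of 10 aged libraries below. In the other muscles the means were lower at 27 months too, from 2.19 to 1.88 in the male and 1.71 to 1.39 in the female diaphragm, 2.43 to 2.22 and 2.31 to 2.03 in the soleus, and 2.98 to 2.80 and 2.95 to 2.79 in the tibialis anterior, with overlapping groups. Per length, Cox8b stayed the more abundant isoform, by 4.87 to 11.5 times at 6 months.

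**Figure D3:**
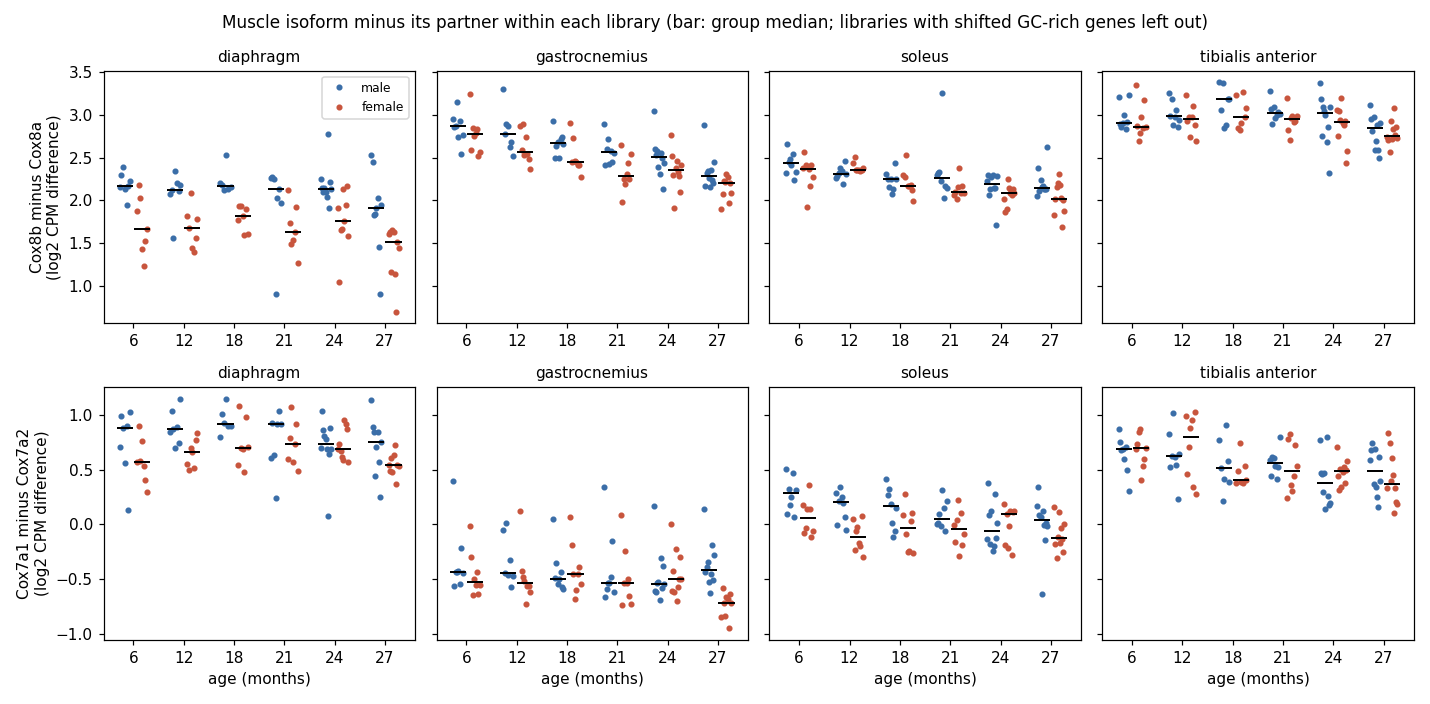
Difference in log2 CPM within each library (vertical axis) between Cox8b and Cox8a and between Cox7a1 and Cox7a2, by age in months (horizontal axis) and muscle; points are libraries, blue for males and red for females, bars are group medians, and the GC-shifted libraries are left out. The Cox8 difference is lower at 27 than at 6 months in the gastrocnemius, with 9 of 10 male and 9 of 9 female libraries below the lowest young one.

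Cox7a1, the muscle isoform of subunit 7a, ranged in the female tibialis anterior from 82.3 to 107 CPM (median 94.1) at 6 months and from 61.6 to 96.4 CPM (median 76.1) at 27 months, with overlap (-0.28, SE 0.0866, adjusted p = 0.0140). Its difference in log2 CPM from Cox7a2 went from 0.67 to 0.42 there, from -0.45 to -0.74 in the female gastrocnemius and from 0.27 to 0.00 in the male soleus, with 6 of 10, 7 of 9 and 5 of 10 aged libraries below the lowest young one. It stood in the male gastrocnemius at -0.33 and -0.36. Cox6a2, the muscle form of subunit 6a, fell by 0.13 (SE 0.0523, adjusted p = 0.0480) in the female gastrocnemius and by 0.16 (SE 0.0527, adjusted p = 0.0191) in the female tibialis anterior. Cox6a1 has processed copies elsewhere in the genome, so its counts are uncertain, and per length Cox6a2 exceeded it by 48.1 to 171 times at 6 months. Cox7c, a structural subunit, fell in the female gastrocnemius from 99.9 to 130 CPM (median 110) to 78.8 to 107 CPM (median 92.3), with overlap (-0.28, SE 0.0622, adjusted p = 0.000409). Ndufa4l2 in the male tibialis anterior ran from 2.04 to 3 CPM (median 2.56) and from 1.27 to 2.84 CPM (median 1.93), with overlap (-0.43, SE 0.136, adjusted p = 0.0219). Cox4i1, the common form of subunit 4, was not called at 27 months in any set with all libraries, and without the GC-shifted library it fell in the female gastrocnemius (-0.22, SE 0.0655, adjusted p = 0.00885).

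Promoters are shown for Sdhb and Ndufb4, which fell, and for Cox8a and Cox8b, the isoforms of subunit 8. RefSeq promoters on GRCm38.p6, 250 bases before to 50 after the start, were matched for 77 of 93 members. The letters searched, on both strands, were GCGCATGC for NRF1, AAGGTCA for oestrogen-related receptors (ERR), CCGGAAG for ETS factors such as GABPA, AAGATGGCG for YY1, CCAAT for NF-Y and TATAAA for the TATA box. The windows printed are the 250 bases before the start, 5′ to 3′ on the gene's strand, with NRF1, ERR and NF-Y letters in capitals and positions counted back from the start to the first letter of a match. The Sdhb window (chr4:140961021-140961270, plus strand, gene at chr4:140961271-140979198) holds NRF1 letters at -54 and NF-Y letters at -9. The Ndufb4 window (chr16:37654369-37654618, minus strand, gene at chr16:37647602-37654368) holds ERR letters at -55 and NF-Y letters at -151. The Cox8a window (chr19:7217617-7217866, minus strand, gene at chr19:7215158-7217616) holds NF-Y letters at -171, and the Cox8b window (chr7:140900447-140900696, minus strand, gene at chr7:140898942-140900446) holds none of the 6 motifs. The whole 300-base promoters, which run past the windows, also hold TATA letters in Cox8b and ETS letters in Sdhb and Cox8a. Each motif was counted whether or not it overlapped another.
Sdhb: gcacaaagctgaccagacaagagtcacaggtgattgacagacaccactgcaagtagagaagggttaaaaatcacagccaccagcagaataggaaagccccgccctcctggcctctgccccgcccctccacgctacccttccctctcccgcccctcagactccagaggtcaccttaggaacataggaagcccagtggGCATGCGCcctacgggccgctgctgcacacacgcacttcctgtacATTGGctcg
Ndufb4: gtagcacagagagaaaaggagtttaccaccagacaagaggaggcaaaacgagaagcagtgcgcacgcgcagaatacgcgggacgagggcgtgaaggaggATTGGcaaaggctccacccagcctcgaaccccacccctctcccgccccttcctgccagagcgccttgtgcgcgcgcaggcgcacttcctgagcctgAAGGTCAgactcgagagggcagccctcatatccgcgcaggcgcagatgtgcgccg
Cox8a: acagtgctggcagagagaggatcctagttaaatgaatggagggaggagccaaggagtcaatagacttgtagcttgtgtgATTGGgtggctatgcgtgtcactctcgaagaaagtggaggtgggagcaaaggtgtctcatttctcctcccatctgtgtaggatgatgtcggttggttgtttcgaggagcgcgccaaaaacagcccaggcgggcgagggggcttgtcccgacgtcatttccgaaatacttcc
Cox8b: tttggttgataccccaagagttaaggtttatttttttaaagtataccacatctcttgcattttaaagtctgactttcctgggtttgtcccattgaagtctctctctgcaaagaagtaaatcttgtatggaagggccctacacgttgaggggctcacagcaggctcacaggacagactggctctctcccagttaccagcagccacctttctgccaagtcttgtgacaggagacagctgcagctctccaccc

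Over the whole 300-base promoters, the NRF1 letters were in 13 members (16.9%, against 3.05% of 27025 genes with a promoter), the ETS letters in 17 (22.1%, against 9.93%), the YY1 letters in 8 (10.4%, against 1.64%) and the ERR letters in 8 (10.4%, against 5.38%). The NF-Y letters were in 35 (45.5%, against 41.1%) and the TATA letters in 7 (9.09%, against 15.7%). The YY1 letters were in 5 of 32 complex I and 2 of 14 complex V promoters and in 0 of 14 of complex IV. The ERR letters were in 4 of 14 of complex V, 3 of 32 of complex I, 1 of 3 of complex II and 0 of 14 of complex IV. These are matches of letters, not measured binding.

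Before 27 months fewer members were called than at 27 months. Over the 8 sets together, 725 pairs of member and set were tested at each age. At 12 months edgeR called 0 falls and 0 rises (0.0929% and 0.267% of all genes), with 9 and 5 at an unadjusted p below 0.05. At 18 months 4 pairs fell (0.552%, against 1.22%) and 0 rose (1.95% of all genes rose). These were Ndufc2 in the female gastrocnemius and Atp5sl, Cox7a2l and Sdhb in the female tibialis anterior. At 21 months 24 fell (3.31%, against 4.69%) and 4 rose (5.24% of all genes rose), which were Cox8a in the female gastrocnemius and Atp5b, Atp5d and Ndufa10 in the female soleus. By 24 months 64 fell (8.83%, against 5.74%) and 8 rose (6.32% of all genes rose). At 27 months 94 pairs fell and 2 rose, as given above. Every age is compared with the same 6-month libraries, so these counts are not independent.

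The falls at 24 months were centred on the male tibialis anterior, where 29 of 90 members fell (6.3% of all genes fell) and the median was -0.18. They comprised 13 complex I subunits, 2 assembly factors, 3 of complex II, 4 of complex III, 4 of complex IV, 1 of complex V, Cycs and Atp5sl. Sdhb ran there from 164 to 203 CPM (median 193, n = 8) at 6 months and from 125 to 197 CPM (median 164, n = 10) at 24 months, and Cycs from 419 to 509 CPM (median 488) and from 353 to 498 CPM (median 412). Both groups overlapped, and the changes were -0.23 (SE 0.0644, adjusted p = 0.0107) and -0.20 (SE 0.0639, adjusted p = 0.0231). Without libraries rich in liver transcripts the count was 19, and with library totals alone it was 9. At 27 months, 5 members were called in the same muscle.

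In the female gastrocnemius 15 members fell at 21 months (7.66% of all genes fell) and 13 at 24 months (9.04%), with Cox8a up at both. The female tibialis anterior had 5 falls at 21 months (5.28% of all genes), Atp5g3, Atp5sl, Cox7a2l, Ndufa4l2 and Sdhb, and 11 at 24 months (7.92%). The male gastrocnemius had 7 falls at 24 months (7.37% of all genes), and Cox8a rose. In the male soleus 4 fell at 24 months (1.49% of all genes), Atp5sl, Ndufaf4, Uqcrc1 and Uqcrfs1. Uqcrfs1 ran there from 228 to 270 CPM (median 251) at 6 months and from 133 to 230 CPM (median 210) at 24 months, where the highest aged library just passed the lowest young one (-0.29, SE 0.0678, adjusted p = 0.00911). At 21 months the share of members that fell was 16.5% in the female gastrocnemius and 5.56% in the female tibialis anterior, the latter near that of all genes. At 24 months it was 14.3% and 12.2% there and 4.4% in the male soleus. In the male gastrocnemius it was 7.78% at 24 months, near that of all genes. Called falls were thus present at 24 months in all the limb sets but the female soleus, and above the all-gene share in all of these but the male gastrocnemius.

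In the female soleus 6 members rose at 24 months (12% of all genes rose) and 0 fell, namely Atp5b, Atp5d, Atp5g1, Cox4i1, Cox7a2l and Ndufa10. Atp5b ran from 811 to 1090 CPM (median 901, n = 8) at 6 months and from 956 to 1170 CPM (median 1020, n = 9) at 24 months, with overlap (0.17, SE 0.0508, adjusted p = 0.0110). With library totals alone, 0 members rose and 34 fell there, with all genes at -0.24 and the members at -0.15, so the rise was relative to other genes. The median over the members of the female soleus was 0.05, 0.04, 0.04 and 0.06 at 12, 18, 21 and 24 months, with 60 to 76 of 91 above 0. In the diaphragm the members' median was above 0 at 12, 18, 21 and 24 months, at 0.07, 0.19, 0.24 and 0.21 in females and 0.08, 0.20, 0.09 and 0.06 in males, and -0.05 and -0.14 at 27 months. With library totals alone the female median at 24 months was -0.01, beside -0.23 for all genes. No member rose past the adjusted threshold in the diaphragm, where edgeR gave 18 rises at an unadjusted p below 0.05 in females at 24 months. With GC-shifted libraries left out, 1 rose there (Cox7a2l, 0.25) and 1 fell (Ndufa4l2). At an unadjusted p below 0.05, edgeR then gave 36 rises and 0 falls at 21 months and 31 and 1 at 24 months in females. In the male diaphragm it gave 2 rises and 1 fall at 21 months and 1 and 1 at 24 months. The members' medians at 12, 18, 21 and 24 months were then 0.081, 0.171, 0.256 and 0.236 in the female diaphragm. For the male diaphragm they were then 0.025, 0.157, 0.032 and 0.009, beside -0.0018, 0.0069, 0.044 and 0.0082 for all genes. The male members thus stood near or below all genes at 21 and 24 months.

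**Figure D4:**
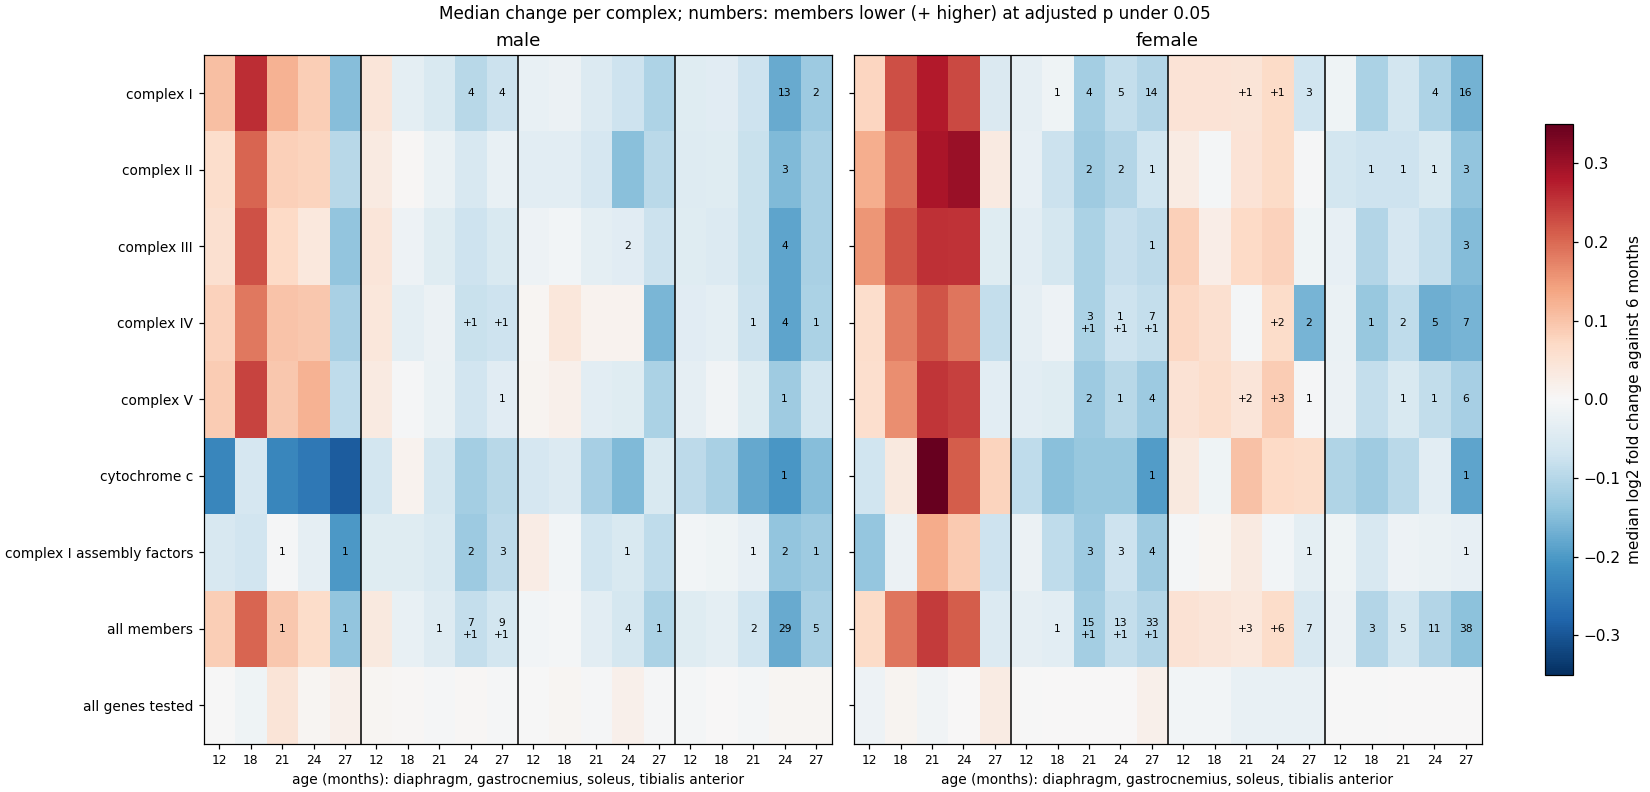
Median log2 fold change against 6 months (colour, blue lower and red higher) over the members of each complex (rows) at the 5 older ages (columns, by muscle and sex), with all members and all genes tested in the lowest rows; numbers count the members called lower, and those after a plus sign the members called higher. All libraries are included. The 27-month columns of the female gastrocnemius and tibialis anterior hold 33 and 38 called falls, and the diaphragm columns at 18 to 24 months are red with no called rise. With library totals alone the sign of all members turns in the gastrocnemius at 27 months and in the female soleus and diaphragm at 24 months.

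Over all 5 older ages at once (edgeR quasi-likelihood F test), the female gastrocnemius had 26 changed members among 91 tested (35.5% of all genes changed). The female tibialis anterior had 18 of 90 (25.1%), the female soleus 11 of 91 (23%). Among males, the tibialis anterior gave 12 of 90 (25.4%), the gastrocnemius 9 of 90 (28.6%). The share of members that changed was thus below the all-gene share in each of these sets. In the male soleus, male diaphragm and female diaphragm edgeR called 0 (4.42%, 7.79% and 3.93% of all genes), with 8, 1 and 7 at an unadjusted p below 0.05. The work that produced these data defined age-related genes with limma, a fold limit, a Bonferroni-adjusted p and a fitted linear or logistic trend. Here the fold limit was used with edgeR and Benjamini-Hochberg adjustment, without a trend fit, so the shares below are not those of that work. With a fold change over 1.5 required at any older age, edgeR called 0 members in each of the 8 sets. That rule called 8.53% of all genes in the male and 9.25% in the female tibialis anterior, 11% and 2.95% in the diaphragm, 2.85% and 8.52% in soleus, and 8.06% and 9.44% in gastrocnemius. Before adjustment it took 2 members, Uqcrb and Cox6a1, in the male diaphragm and 0 in the other sets.

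The differences between muscles and sexes in the change from 6 to 27 months were tested as interactions. Against the gastrocnemius, edgeR called 0 members in the tibialis anterior (0% of all genes in males and 0.35% in females), 0 in the diaphragm (1.39% and 1.53%) and 0 in soleus (0.313% and 1.79%). At an unadjusted p below 0.05 there were 0 and 0 in the tibialis anterior, and 1 and 2 in each of the others, and limma-voom also called 0. Between the sexes, edgeR and limma-voom called 0 members in each muscle. By edgeR, 0.388% of all genes differed in the tibialis anterior, 0% in the diaphragm, 0.706% in soleus and 0.538% in gastrocnemius, and 1, 0, 6 and 5 members had an unadjusted p below 0.05. The larger number of falls in females is therefore not shown to be a difference between the sexes. Without the GC-shifted libraries, 1 member differed in the female diaphragm (5.22% of all genes), Ndufaf5, whose change exceeded that of the gastrocnemius by 0.34 (SE 0.107, adjusted p = 0.0429). For the female soleus 2 then differed (6.81% of all genes), Cox8a by -0.41 (SE 0.128, adjusted p = 0.0383) and Ndufaf4 by 0.32 (SE 0.0977, adjusted p = 0.0346).

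At 6 months, more members stood above the gastrocnemius in the tibialis anterior than below it, in both sexes and under each scaling. Against the gastrocnemius, 27 members were higher in the male (4.49% of all genes were higher) and 35 in the female tibialis anterior (6.09%), and 0 were lower in either (5.12% and 7.33% of all genes were lower). The members' medians were 0.34 and 0.35 beside -0.03 and -0.04 for all genes. Leaving out the GC-shifted libraries, 49 and 65 were higher (8.94% and 11.7% of all genes) and 0 lower (9.92% and 12.9%), 48 of them in both sexes. With library totals alone 11 and 23 were higher and 0 lower, with all genes at -0.24 and -0.18. The members' median exceeded the all-gene median by 0.37 in males and 0.39 in females. A change of scaling shifts all genes of a library alike, so it cannot test this difference.

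In the tibialis anterior Cox7a1 differed most. GC-shifted libraries left out, it ranged in males from 43.6 to 80.9 CPM (median 48.6, n = 8) in the gastrocnemius, 69.2 to 152 CPM (median 106, n = 7) for the diaphragm, 89.9 to 104 CPM (median 97.3, n = 8) for the soleus and 104 to 143 CPM (median 121, n = 8) in the tibialis anterior. The gastrocnemius was lowest and overlapped the diaphragm alone. In females the ranges were 39.5 to 65.7, 51.4 to 132, 68.6 to 99.5 and 110 to 141 CPM in the same order. In the fit with all libraries its differences from the gastrocnemius were 1.16 (SE 0.216, adjusted p = 7.57e-05) in the male and 1.40 (SE 0.182, adjusted p = 1.25e-08) in the female tibialis anterior. Cox7b, a structural subunit, ranged in the male tibialis anterior from 189 to 268 CPM (median 239) against 137 to 173 CPM (median 154) in the gastrocnemius, and Uqcrc2, a core subunit of complex III, from 241 to 272 CPM (median 263) against 162 to 193 CPM (median 165). Neither pair of groups overlapped, and the differences were 0.62 (SE 0.107, adjusted p = 1.52e-05) and 0.62 (SE 0.106, adjusted p = 1.68e-05).

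In the soleus, 27 members were higher and 8 lower in males (21.7% and 20.7% of all genes) and 12 higher and 10 lower in females (24.5% and 21.1%). The medians were 0.15 and 0.04 beside 0.04 and 0.08 for all genes. Without the GC-shifted libraries the counts were 38 and 13 in males (26.1% and 26.1% of all genes) and 23 and 23 in females (29.6% and 26.5%), and with library totals alone 45 higher and 5 lower in males and 57 and 4 in females. The split between higher and lower members in the soleus thus depended on the scaling, and the all-gene median moved to 0.27 and 0.53 with totals. Sdhb ranged in the male soleus from 262 to 304 CPM (median 276) against 161 to 188 CPM (median 177) in the gastrocnemius, without overlap (0.68, SE 0.102, adjusted p = 7.31e-08). Uqcrq was also higher there (0.72, SE 0.231, adjusted p = 0.00839).

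In the diaphragm, 21 members were higher and 11 lower in males (35.2% and 28.7% of all genes) and 6 higher and 24 lower in females (38.4% and 31.2%). Without the GC-shifted libraries the counts were 22 and 14 in males (36.3% and 31.7% of all genes) and 4 and 41 in females (40.6% and 34.6%). With library totals alone they became 73 and 2 in males and 71 and 2 in females, with all genes at 0.76 and 0.98. By edgeR, more members were thus higher than lower under each scaling in males, while in females the split turned with the scaling. With all libraries, the male counts of 21 and 11 are of 91 members, both shares below those of all genes. More of all genes were higher than lower in males too, so this split is not particular to the members. In males limma-voom gave 12 higher and 14 lower. The members' medians were 0.04 in males and -0.17 in females, below those of all genes (0.13 and 0.12). Without the GC-shifted libraries they were 0.11 and -0.18, beside 0.12 and 0.12 for all genes. Under both scalings and without the GC-shifted libraries, 22 members were higher and 1 lower (Ndufaf6) in the male diaphragm. Those higher in the female diaphragm were Cox6a1, Cox6b2, Cox7a1 and Cox8a, and the 2 lower were Ndufaf6 and Ndufs5.

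Ndufaf6 ranged in the female diaphragm from 2.18 to 5.55 CPM (median 4.28, n = 7) and in the soleus from 5.21 to 6.53 CPM (median 5.8), against 9.5 to 11.6 CPM (median 11.1) in the gastrocnemius and 10.7 to 12.5 CPM (median 11.7) in the tibialis anterior, GC-shifted libraries left out. In males it ran from 5.18 to 6.26, from 4.4 to 7.08, from 9.93 to 11.8 and from 10.7 to 15.6 CPM in the same order. The diaphragm and soleus lay below both fast limb muscles without overlap (female diaphragm -1.28, SE 0.104, adjusted p = 1.32e-17, and female soleus -0.91, SE 0.103, adjusted p = 1.42e-11, in the fit with all libraries). Ndufs5, an accessory subunit of complex I, ranged from 9.38 to 23.4 CPM (median 15.1) in the female diaphragm and from 17.2 to 28.2 CPM (median 20.4) in the soleus, against 33.2 to 40.2 CPM (median 37.4) in the gastrocnemius. Its differences were -1.19 (SE 0.133, adjusted p = 2.85e-12) and -0.78 (SE 0.132, adjusted p = 9.39e-07), and in the male diaphragm -0.998 (SE 0.151, adjusted p = 3.66e-08).

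Cox8a and Cox6a1, common isoforms of complex IV, were higher in the diaphragm and soleus than in the gastrocnemius without the GC-shifted libraries, as was the muscle form Cox7a1, in both sexes. Cox8a ranged in the female diaphragm from 22.5 to 30.3 CPM (median 26.4, n = 7), in the soleus from 15 to 30.8 CPM (median 20.3), in the gastrocnemius from 10.1 to 14.7 CPM (median 13) and in the tibialis anterior from 11.5 to 14.9 CPM (median 13.4), GC-shifted libraries left out. The diaphragm and soleus lay above the fast limb muscles, which overlapped each other (female diaphragm 0.93, SE 0.169, adjusted p = 1.79e-06, and female soleus 0.73, SE 0.169, adjusted p = 0.000218, in the fit with all libraries). Cox6a1 ran from 5.66 to 7.88 CPM (median 6.43) in the female diaphragm against 3 to 3.67 CPM (median 3.18) in the gastrocnemius, without overlap (0.86, SE 0.192, adjusted p = 6.95e-05). Ndufa13 was lower in the female diaphragm (-0.94, SE 0.211, adjusted p = 7.87e-05) and Atp5g2 in the male diaphragm (-0.79, SE 0.224, adjusted p = 0.00175), and without the GC-shifted libraries they stood at -0.78 (SE 0.111, adjusted p = 4.14e-09) and -0.60 (SE 0.122, adjusted p = 1.46e-05). Both turned to small positive differences with library totals alone as well. Cox6b2, the testis form of subunit 6b, had 0 counts in 34 libraries, and its difference rests on few counts.

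**Figure D5:**
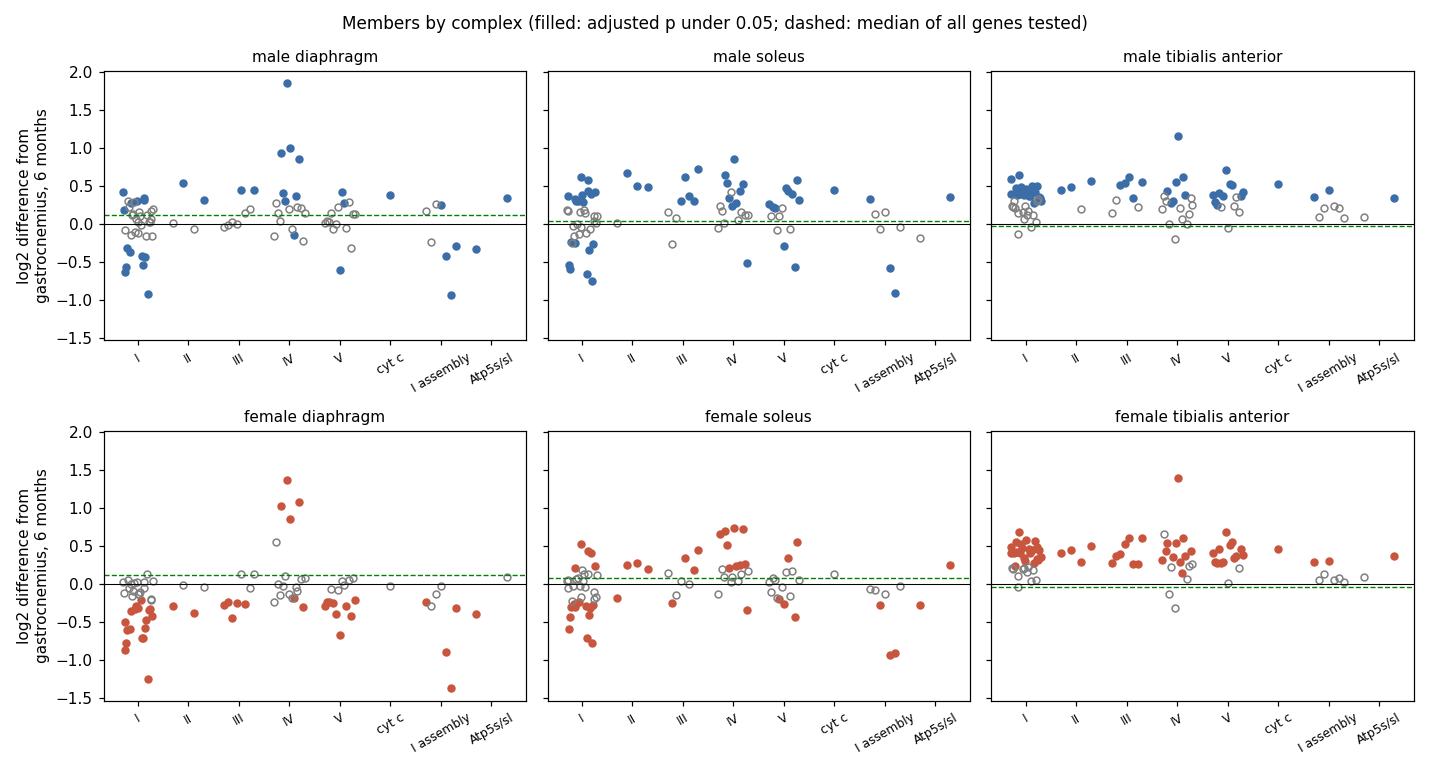
Log2 difference of each member from the gastrocnemius at 6 months (vertical axis) by complex (horizontal axis) in the diaphragm, soleus and tibialis anterior of each sex, from the fit without the GC-shifted libraries; filled points passed an adjusted p of 0.05 and dashed lines are the medians of all genes tested. In the tibialis anterior 49 male and 65 female members are higher and 0 lower, while the other muscles spread to both sides of 0, a split that changes with the scaling.

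Per kilobase of the longest RefSeq transcript, Cox6a2 was the most abundant complex IV member in each of the 8 sets at 6 months (medians of 612 to 975 CPM per kilobase), Atp5b the most abundant in complex V (411 to 602) and Sdhb in complex II. The complex I assembly factors lay at medians of 4.3 to 10.1 CPM per kilobase, against 48.8 to 82.8 for the complex I subunits. Cox4i1 exceeded Cox4i2, the form induced by low oxygen, by 141 to 284 times per length, and Ndufa4 exceeded Ndufa4l2 by 24.1 to 45.8 times.

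Other gene lists were counted at 27 months, beside these shares of all genes that fell and rose. They were 14.6% and 14.6% in the female gastrocnemius, 9.84% and 12.1% in the female tibialis anterior, and 8.74% and 10% in the female soleus. In males they were 12.6% and 10.6% for the gastrocnemius, 7.81% and 9.97% for the tibialis anterior, and 1.05% and 1.8% for the soleus. The diaphragm had 3.52% and 5.13% in males and 0.988% and 0.624% in females. Of 13 citric acid cycle genes, 7 fell in the female gastrocnemius, 7 in the female tibialis anterior, 2 in the male gastrocnemius and 2 in the male tibialis anterior, and none was called in the other sets. Of 33 assembly factors without the Nduf prefix, 10 fell and 2 rose in the female gastrocnemius, 10 fell in the female tibialis anterior, 6 fell in the male gastrocnemius, 8 fell and 1 rose in the male tibialis anterior, 2 fell in the female soleus and 1 fell in the male diaphragm. Of the 13 mitochondrially encoded protein genes, 10 fell in the female gastrocnemius (median -0.22), 9 rose in the female soleus (median 0.23) and 1 fell in each of the male diaphragm, male tibialis anterior and female tibialis anterior. In the female soleus, where those 9 rose, 7 of 91 nuclear members fell (7.69%, against 8.74% of all genes). Without 6 months replicate 4 the nuclear falls there numbered 1. A difference between the mitochondrially encoded and the nuclear genes was not tested.

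Of 23 regulators of these genes, 6 fell and 2 rose in the female gastrocnemius, 7 fell in the female tibialis anterior, 5 fell and 1 rose in the male gastrocnemius, 3 fell and 2 rose in the male tibialis anterior, and 3 fell and 3 rose in the female soleus. The all-gene shares above apply to these counts, and those of the female soleus are not far from them. Ppargc1a, a coactivator of mitochondrial genes, rose in the male gastrocnemius (0.91, SE 0.288, adjusted p = 0.0170) and tibialis anterior (0.81, SE 0.278, adjusted p = 0.0366). Esrra, its nuclear receptor partner, fell in the female (-0.30, adjusted p = 6.59e-05) and male (-0.26, adjusted p = 0.0422) tibialis anterior. Tfam, a mitochondrial DNA-binding factor, fell in the female gastrocnemius (-0.25, SE 0.0376, adjusted p = 7.50e-07), male gastrocnemius (-0.22, SE 0.0547, adjusted p = 0.00171) and male tibialis anterior (-0.12, SE 0.0409, adjusted p = 0.0340) and rose in the female soleus (0.21, SE 0.0637, adjusted p = 0.0171). The regulators named here thus went in different directions in the same muscles.

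Gabpa fell in the female gastrocnemius (-0.23, adjusted p = 0.000220) and tibialis anterior (-0.13, adjusted p = 0.00317). Yy1 fell in the male (-0.12, adjusted p = 0.0220) and female (-0.15, adjusted p = 0.000328) gastrocnemius and the female tibialis anterior (-0.09, adjusted p = 0.0439), and rose in the female soleus (0.13, adjusted p = 0.0287). The NF-Y subunit genes Nfyb and Nfyc fell in the gastrocnemius of both sexes, and Nfyc in the male tibialis anterior too. Gabpb2 fell in the male gastrocnemius and the female soleus, and Ppard rose in the female gastrocnemius and soleus. Nrf1 was not called in any set, with changes from -0.08 to 0.15.

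Fibre type genes moved in the gastrocnemius with the members. The summed level of 10 fast fibre genes went from 87200 to 95100 CPM at 6 months to 71400 to 82800 CPM at 27 months in males, without overlap, and from 86300 to 97000 to 67900 to 86900 CPM in females. Of these genes 7 fell and 1 rose in males and 8 fell in females (12.6% and 14.6% of all genes fell). Of 8 slow fibre genes, 5 rose in males and 7 in females (10.6% and 14.6% of all genes rose). In the tibialis anterior the fast fibre sums overlapped (66000 to 70800 and 59500 to 75000 CPM in males, 64100 to 77400 and 61800 to 76800 CPM in females), with 0 called in males and 1 rise and 1 fall in females, where 4 slow fibre genes rose and 1 fell. In the other sets 1 fast fibre gene fell in the male diaphragm and 1 rose in the female soleus, where 1 slow fibre gene rose. The part of fibre type in the members' changes was not tested.

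Of 6 fibroblast genes, 4 fell in the male and 3 in the female tibialis anterior, 2 and 2 in the diaphragm, 3 and 6 in soleus, 4 and 4 in gastrocnemius, and none rose. Of 7 adipocyte genes 2 rose in the female tibialis anterior. Brown adipocyte genes, which matter here since Cox8b is abundant in that cell type, summed to 0.0325 to 26.9 CPM at 6 and 27 months, and 1 rose in each of the male gastrocnemius, male soleus and female soleus. Of 8 macrophage genes 4 rose in the female tibialis anterior, 1 in each of the male diaphragm, male gastrocnemius and female gastrocnemius, and 3 fell in the female soleus. Endothelial, erythroid and Schwann cell genes gave at most 3 calls in any set. Liver genes reached a sum of 15100 CPM in the male diaphragm at 27 months and 6 of 8 rose in the female tibialis anterior. Without the 53 libraries with over 10 times the median liver sum of their set, 3 members were called in the male diaphragm, 8 in the male tibialis anterior and 0 in the male soleus at 27 months. The all-gene shares given above for each set apply to these marker counts too. The part of these cell types in the members' changes was not tested otherwise.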

How the data were processed

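RNA was sequenced after removal of ribosomal RNA with a strand-specific kit, as paired-end reads, per the labels. The authors aligned the reads to mm10 and counted them per gene with their own RefSeq-based gene model, and they deposited raw counts, 25091 rows by 407 libraries. Where several rows named the same gene symbol, the row with the most counts was kept. The other rows (0.0335% of counts) were left out, and 0 columns of other samples were found. Groups were taken from the sample titles.

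edgeR 4.0.16 in R 4.3.3 was used with TMM scaling, filterByExpr and the quasi-likelihood test over all genes, 1 fit for each muscle and sex with 6 ages, and Benjamini-Hochberg adjustment over all genes tested (threshold 0.05). Muscles were compared per sex on the 6- and 27-month libraries. SE is the log2 fold change divided by the root of F. CPM are TMM-scaled, so levels are relative to the other genes of a library. limma-voom (limma 3.58.1), DESeq2 1.42.0, other scalings, filters, adjustments and left-out libraries served as alternatives. The GC shift is the median log2 deviation of the tenth of genes with the highest GC content less that of the tenth with the lowest, at a mean log2 CPM of at least 3. The libraries beyond a shift of 1 were found after the data were seen.

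Named members were the isoform pairs, the Sdh genes, Cycs, the 3 largest called changes in each direction of each set at 27 months and of each muscle contrast, members called by the study's fold rule, and members with a called interaction. Regulators were named when called the same way in at least 2 sets, and Ppargc1a, Esrra, Nrf1, Gabpa and Tfam always. Members, lists (regulators, citric acid cycle, assembly factors, mitochondrially encoded genes, fibre types and cell type markers) and tests were chosen with earlier results of these data known. The edgeR step was tested on simulated data for the female tibialis anterior at 27 against 6 months (14523 genes): of 50 genes changed at each size it recovered 20 at 1.2-fold, 31 at 1.3-fold, 37 at 1.5-fold and 43 at 2-fold, with 4 false calls. No interval on counts is given, and precision rests on the spread between libraries.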

Additional observations from a re-analysis of the deposited data

Results flagged for a closer look

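In 6 of 48 groups, a library stood apart from the rest of its group in the median log2 level of the members, by the gap test of Dixon, which chance alone passes in about 1 of 20 groups. In the male diaphragm at 27 months replicate 8 stood at -0.97 against -0.27 for the next library, and at 12 months replicate 2 stood at -0.26 against 0.10. In the female diaphragm at 21 months replicate 7 stood at -0.23 against 0.24, and at 18 months replicate 4 stood at -0.0838 against 0.21. In the male soleus at 24 months replicate 8 stood at -0.46 against -0.17. In the female gastrocnemius at 24 months replicate 3 stood at -0.30 against -0.13. All 6 were the lowest library of their group, 4 were from the diaphragm, and none is among the GC-shifted libraries.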

How the results depend on the processing

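Counts of members called moved by over 1.5 times in 51 alternatives and stayed within that in 112. At 27 months the main counts were 1, 10, 1 and 5 in the male and 0, 34, 7 and 38 in the female diaphragm, gastrocnemius, soleus and tibialis anterior. Bonferroni adjustment gave 0, 1, 0 and 0 in males and 3, 0 and 3 in the female gastrocnemius, soleus and tibialis anterior. Library totals alone gave 3 in the male soleus, 2 in the male tibialis anterior, 1 in the female diaphragm and 8, 79 and 8 in the other female sets, where the all-gene medians moved to 0.14, -0.22 and 0.06. DESeq2 gave 2 in the male diaphragm and 2 in the male soleus, and limma-voom 2 in the latter. Only the 6- and 27-month libraries gave 0 in the male diaphragm and 20 in the female gastrocnemius. Without liver-rich libraries the male counts were 3 (diaphragm), 0 (soleus) and 8 (tibialis anterior). Leaving out the GC-shifted libraries gave 2 in the male diaphragm, 1 in the female diaphragm and 63 in the female gastrocnemius. Leaving out the library farthest from its group at 6 or 27 months gave 0 to 1 in the male diaphragm, 6 to 8 in the male gastrocnemius, 0 in the male soleus, 27 to 63 in the female gastrocnemius and 1 to 8 in the female soleus. The 29 calls of the male tibialis anterior at 24 months became 9 with library totals, 1 with Bonferroni adjustment and 19 without liver-rich libraries.

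Libraries with the same replicate number at different ages of a muscle deviated together (r over 0.1) in 25 of 64 comparisons and share only a number. With the replicate block, 0 members were called in the male diaphragm and in the male soleus and 4 in the female soleus. Between muscles at 1 age, 124 of 216 same-numbered pairs passed that limit, 8 of 8 for the gastrocnemius and tibialis anterior at 6 months in each sex, where the block gave 31 calls in males and 32 in females.

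Between muscles at 6 months the main counts were 32, 35 and 27 in the male and 30, 22 and 35 in the female diaphragm, soleus and tibialis anterior. Library totals alone gave 75 in the male diaphragm, 11 in the male tibialis anterior, and 73, 61 and 23 in females. Without the GC-shifted libraries there were 49 in the male tibialis anterior, 46 in the female soleus and 65 in the female tibialis anterior, and with library totals as well 85 and 66 in the male diaphragm and soleus and 87, 80 and 54 in females. There Atp5g2 stood at 0.0728 (adjusted p = 0.568) in the male and Ndufa13 at 0.0899 (adjusted p = 0.367) in the female diaphragm. Interactions without the GC-shifted libraries gave 1 call in the female diaphragm and 2 in the female soleus. For single members, 187 changes with age were on the same side of the threshold and 31 were not, and 196 differences between muscles were and 12 were not, besides the 2 that reversed. The cause of these changes was not tested.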
